A study of Homo sapiens with 24 samples.

Results

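On matrigel, the MDA-MB-231 line that overexpressed the dSAP form of MRTF-A was compared with the line that overexpressed wild-type MRTF-A (WT). The comparison rests on 6 libraries of 24, those titled 3D dSAP 1 to 3 and 3D WT 1 to 3. MDA-MB-231 is a human triple-negative breast cancer line with mesenchymal features. Every group was treated with 1 ug/ml doxycycline for 72 h to induce the construct, the control line included, and was grown with 10% fetal bovine serum and antibiotics. The 3D groups used here, dSAP, WT and control, grew on a layer of matrigel, an extract of basement membrane proteins, in medium that held 2% matrigel. The 2D groups, dSAP, WT, dSRF and control, were grown in culture plates. Each group had 3 libraries, and the labels do not say whether these came from separate cultures, so p-values measure only the spread between libraries. The labels also do not say which promoter drives the construct, nor whether a line is 1 clone or a pool.

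MRTF-A is a coactivator of the transcription factor SRF. It is held in the cytoplasm by monomeric actin, and when actin polymerises it enters the nucleus and joins SRF on a DNA element called the CArG box, which lies near the start of many genes of the actin cytoskeleton and of smooth muscle. The SAP domain of MRTF-A is a DNA-binding fold that is not needed to bind SRF, and the name dSAP is used in the field for a form without that domain, although the labels do not spell it out. The question was which transcripts differ between the 2 forms when both are induced on matrigel.

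The induced gene was read first. MRTFA (ENSG00000196588, chromosome 22, 40410281 to 40636702, GRCh38) stood at 10569, 10104 and 10648 CPM in dSAP, against 4464, 4416 and 4582 CPM in WT and 29.3, 28.6 and 29.1 CPM in control. All dSAP libraries lay above all WT libraries, and both groups lay far above control. The difference of dSAP minus WT was 1.22 ± 0.04 on the log2 scale, so every matrigel difference was measured with 2.33 times as much construct RNA in dSAP, and the form of the protein and its amount cannot be told apart here. The gene-level level of MRTFA separates both overexpressing lines from control but cannot tell which construct a library holds. The genotype field of the labels goes against the titles for 4 of the 6 libraries. The titles were followed, and the log2 CPM of libraries correlated across genes at r of 0.984 to 0.986 within the titled groups and at 0.978 to 0.981 between them. Here CPM are read counts scaled to a common library size with edgeR's TMM normalisation, fold changes are log2 values of dSAP minus WT with the standard error of the fit, and a gene was called where the Benjamini-Hochberg adjusted p of edgeR's quasi-likelihood test was under 0.05 over all 14770 genes tested.

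Of the 14770 genes, 4134 were called (28.0%), 1975 higher in dSAP (13.4%) and 2159 lower (14.6%). Most differences were small: the median absolute log2 fold change of the called genes was 0.29, and the biological coefficient of variation was 6.61%. At least 2-fold changes were called for 178 genes higher (1.21%) and 149 lower (1.01%). The split depended on the scale. On log2(TPM + 1), 2427 genes were higher and 957 lower, and the median of all genes was 0.09, against 0.02 with TMM. On log2(TPM + 0.1) the counts were 2324 and 925. The 100 most abundant genes took 16.3% to 16.6% of counts in dSAP libraries, against 18.4% to 18.6% in WT libraries, and library totals ran from 17190299 to 19602579 in dSAP and from 17928529 to 21931251 in WT. Mitochondrial genes held 1.29% to 1.32% of counts in dSAP and 1.18% to 1.42% in WT. A fit to all 24 libraries called 1810 genes, 817 higher and 993 lower, of which 1809 were also called here. The library labelled 3D dSRF 1 stands apart from its group and widens the spread of that fit. It is in none of the groups compared, and with the other 23 libraries 4149 genes were called.

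Cell identity was checked with fixed markers. VIM, which encodes the mesenchymal filament protein vimentin, stood at 1293, 1342 and 1354 CPM in dSAP and 1877, 1869 and 1855 CPM in WT. ESR1, the oestrogen receptor gene, had 0 counts in all 6 libraries. Luminal, receptor and epithelial markers of breast lines were not all absent. Over the 6 libraries GATA3 held 1313 counts, EPCAM 2175 and ERBB2 12430. By contrast PGR held 2 counts, FOXA1 10 and CDH1 31. Of 20 markers of other cell types, 17 stayed under 1 CPM in every library of both groups and 8 had 0 counts, among them PTPRC (leukocytes), CLDN5 (endothelium), ADIPOQ (fat) and ALB (liver). The 3 above that level were CD68, CD14 and GFAP. CD68, a lysosomal protein of macrophages and of other cells, differed by 0.41 ± 0.08, CD14, a receptor for bacterial lipopolysaccharide, by -0.54 ± 0.13 and GFAP, a filament protein of astrocytes, by 0.68 ± 0.18. All 3 were called, CD14 not on the TPM scales, while VWF, tested at under 1 CPM, was not called (0.98 ± 0.79). The summed level of the tested markers ran from 59.6 to 62.9 CPM in dSAP and from 49.4 to 52.5 CPM in WT.

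The CArG box is shown first because it is the element that MRTF-A and SRF share. It was searched by its usual consensus, on either strand, in RefSeq promoters of GRCh38.p14 that run from 250 bases before the gene start to 50 bases after it. Of 27305 promoters in the table, 1.28% held at least 1 box, and of the 10698 tested genes with a promoter there, 1.11%. Among genes called lower in dSAP by at least 2-fold, 11 of 109 held one (10.1%), and among genes called higher by at least 2-fold, 1 of 113 (0.885%). Among all genes called lower the share was 2.77%, and among all called higher 0.717%. The 11 genes were ACTG2, MYLK, LDB3, PDGFA, NR2F1, CD34, ARHGDIB, ASB2, RHOJ, GARIN1B and RPE65. Those other than ACTG2, MYLK and GARIN1B are named because they hold a box, after their values were seen, and RPE65 and ARHGDIB lay under 1 CPM in both groups. The call of RHOJ was lost under most alternatives, with an adjusted p of 0.324 with all 24 libraries. The 1 gene called higher was MYL7. ACTA2, KCNMB1, LMOD1, VCL, CNN1, VAV1 and MRTFA held 0 boxes in this window, and TAGLN, MYL9, KRT17, ALX1, GRAMD1B and IRAG1 were not matched to the table. Only 1 window per gene and the exact consensus were searched, so boxes at other starts, further away or with a changed letter would be missed. A match, or none, is a description of these letters only.

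Promoters of 5 genes with a box that behaved differently are printed with the box in capitals. ACTG2 and ACTC1 encode muscle actins, FHL2 encodes a LIM protein that binds SRF, SRF encodes the partner itself, and MYL7 encodes an atrial myosin light chain. The ACTG2 promoter is on chr2:73892758-73893057, plus strand, with boxes that begin 110 and 73 bases before the gene start. The ACTC1 promoter is on chr15:34795500-34795799, minus strand. The FHL2 promoter is on chr2:105438464-105438763, minus strand. The SRF promoter is on chr6:43171019-43171318, plus strand, with boxes 30 and 10 bases before the start. The MYL7 promoter is on chr7:44141283-44141582, minus strand, with its box 61 bases before the start.
ACTG2: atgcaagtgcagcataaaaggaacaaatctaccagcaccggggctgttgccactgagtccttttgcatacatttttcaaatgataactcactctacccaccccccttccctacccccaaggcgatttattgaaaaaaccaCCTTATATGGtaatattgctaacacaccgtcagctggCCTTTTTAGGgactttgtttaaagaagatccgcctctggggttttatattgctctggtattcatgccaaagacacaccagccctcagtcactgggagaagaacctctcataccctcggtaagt
ACTC1: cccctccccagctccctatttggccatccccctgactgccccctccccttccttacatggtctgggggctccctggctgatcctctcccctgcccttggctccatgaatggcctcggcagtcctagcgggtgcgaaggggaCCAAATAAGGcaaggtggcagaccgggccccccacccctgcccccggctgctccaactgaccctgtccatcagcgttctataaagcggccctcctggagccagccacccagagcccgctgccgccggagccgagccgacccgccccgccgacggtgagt
FHL2: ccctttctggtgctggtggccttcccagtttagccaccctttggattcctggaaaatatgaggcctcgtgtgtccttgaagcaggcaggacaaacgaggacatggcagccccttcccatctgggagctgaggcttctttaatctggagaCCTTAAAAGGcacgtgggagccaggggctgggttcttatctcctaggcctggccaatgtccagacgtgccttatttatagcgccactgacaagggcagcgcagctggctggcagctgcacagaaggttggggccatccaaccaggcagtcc
SRF: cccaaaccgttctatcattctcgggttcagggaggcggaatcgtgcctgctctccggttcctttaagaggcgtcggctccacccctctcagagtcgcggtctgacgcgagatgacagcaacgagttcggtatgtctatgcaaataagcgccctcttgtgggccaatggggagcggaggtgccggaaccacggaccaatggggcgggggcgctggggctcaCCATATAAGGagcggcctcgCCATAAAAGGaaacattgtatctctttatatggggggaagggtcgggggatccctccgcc
MYL7: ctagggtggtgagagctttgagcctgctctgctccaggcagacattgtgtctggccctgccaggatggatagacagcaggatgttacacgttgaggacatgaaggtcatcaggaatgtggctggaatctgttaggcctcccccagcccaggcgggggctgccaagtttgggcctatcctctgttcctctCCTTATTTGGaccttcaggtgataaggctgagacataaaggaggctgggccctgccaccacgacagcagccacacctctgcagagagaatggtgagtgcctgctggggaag

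Of these genes 4 were lower in dSAP and MYL7 was higher. In these bulk libraries fewer cells with a transcript and less RNA per cell cannot be told apart. ACTG2 had 690.1, 689 and 656 CPM in dSAP, 1420.1, 1332 and 1344 CPM in WT and 0 counts in control. The dSAP libraries were all below the WT libraries, with a difference of -1.01 ± 0.16. Levels given as mean ± value carry the SD over 3 libraries, and changes given the same way carry the standard error. SRF had 279, 289 and 272 CPM in dSAP, against 369.9, 340.3 and 372 CPM in WT and 82.3, 78.6 and 79.5 CPM in control, and fell by a log2 value of 0.37 without overlap. FHL2 fell to 42.7 ± 2.65 CPM in dSAP, against 83.0 ± 1.01 CPM in WT, and ACTC1 to 14.2 ± 2.49 CPM in dSAP, against 21.5 ± 0.922 CPM in WT. MYL7 went the other way, with 120.4, 127 and 134 CPM in dSAP, 37.1, 37.3 and 39.0 CPM in WT and 0 counts in control. GARIN1B, with a box, had 6.22 ± 0.625 CPM in dSAP and 15.1 ± 0.541 CPM in WT and fell, and MGAM, an intestinal glucosidase, was not called (-0.17 ± 0.18), its sign near 0 on log2(TPM + 0.1). Of the relatives of the induced pair, MRTFB was not called (0.10 ± 0.05) and ELK3, a ternary complex factor that binds SRF, rose (0.27 ± 0.05). The rise of MYL7 (1.75 ± 0.18) was without overlap, so 1 CArG-bearing muscle gene was higher with dSAP while the 2 muscle actins were lower in edgeR's test.

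Smooth muscle contractile genes were lower in dSAP than in WT, with the most negative median of the lists. Of 16 tested, 12 fell, 1 rose and 3 were not called, with a median log2 fold change of -0.95, against 0.02 over all genes. ACTA2 (ENSG00000107796, chromosome 10, 88935074 to 88991339, GRCh38), which encodes smooth muscle alpha actin, had 194, 206 and 203 CPM in dSAP, 1238, 1218 and 1227 CPM in WT and 3.23, 2.90 and 2.39 CPM in control. Libraries of the 3 groups did not overlap, and the difference was -2.61 ± 0.12 (edgeR adjusted p = 1.51e-10), so WT held 6.10 times as much ACTA2 RNA. TAGLN, an actin-binding protein of contractile smooth muscle, had 193, 209.7 and 187 CPM in dSAP, against 1142, 1165 and 1184 CPM in WT and 7.89, 13.5 and 13.5 CPM in control. It fell by 2.57 on the log2 scale, again without overlap and again well above control.

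KCNMB1 (ENSG00000145936, chromosome 5, 170374671 to 170389677, GRCh38), the beta subunit of the calcium-activated potassium channel of smooth muscle, had the most negative change of the genes named by rule. It had 0.0486, 0.350 and 0.167 CPM in dSAP, against 12.3, 11.1 and 11.28 CPM in WT and 0.0576, 0.0581 and 0.0499 CPM in control. The dSAP libraries held 11 counts in all, against 699 in WT and 3 in control, and the difference between dSAP and WT was -5.89 ± 0.25. Against control, the dSAP sum was 3.42 times higher with an exact 95% counting interval of 0.903 to 19.1, and the WT sum 211 times higher (71.9 to 1026). In dSAP this gene was thus not distinguishable from control at this depth. LMOD1, which nucleates actin filaments in smooth muscle, had 15.95, 11.4 and 18.1 CPM in dSAP and 60.2, 64.0 and 58.8 CPM in WT, without overlap. Its change was -2.01 ± 0.17.

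The remaining members fell less or were not called. MYLK, the kinase that activates smooth muscle myosin, changed by -1.04 ± 0.06, CALD1, which encodes the actin regulator caldesmon, by -0.90 ± 0.04 and the tropomyosin gene TPM1 by -0.81 ± 0.05. MYLK stood at 79.5 ± 3.18 CPM in dSAP, 164 ± 2.62 CPM in WT and 95.02 ± 2.03 CPM in control, so the dSAP level was the lowest of the 3. MYL9, a regulatory light chain, had 1949.7, 1993 and 2154 CPM in dSAP and 1749, 1906 and 2013 CPM in WT. These libraries overlapped and the difference of 0.11 ± 0.13 was not called (adjusted p = 0.609), although both groups lay far above the 109.9, 127 and 118 CPM of control. CNN1, which encodes calponin, lay under 1 CPM in every library and was not called (-1.18 ± 0.66), and its sign turned on the TPM scale. With all 24 libraries, 9 of the 16 fell, and the calls of ACTG2 (adjusted p = 0.147) and ACTC1 (adjusted p = 0.086) were lost. ACTC1 was not called on log2(TPM + 1) or log2(TPM + 0.1) either (limma adjusted p = 0.0633 and 0.338).

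**Figure D1:**
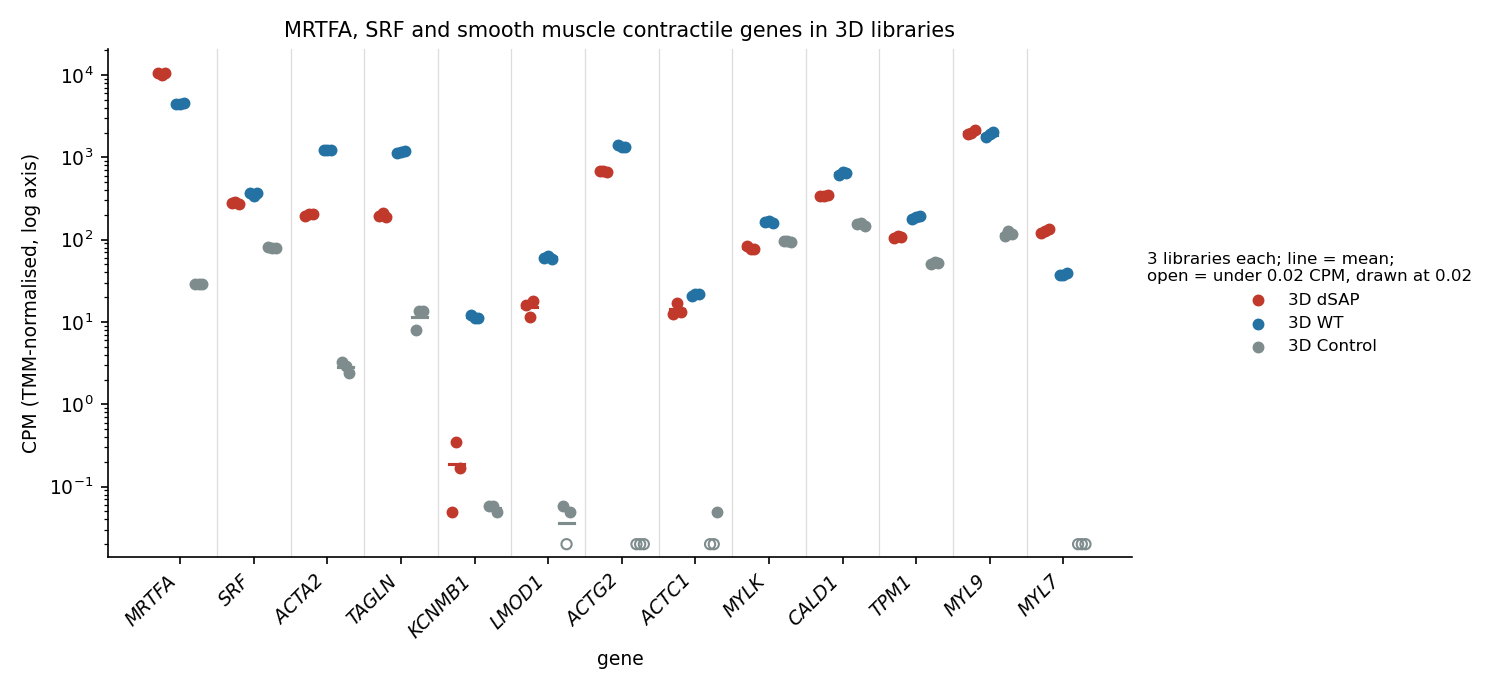
Levels in CPM on a log axis for MRTFA, SRF and 11 contractile genes, with 1 point per library and a line at the mean of 3 libraries for 3D dSAP, 3D WT and 3D control. MRTFA and MYL7 stand higher in dSAP than in WT, MYL9 overlaps, and the others stand lower in dSAP than in WT, most of them above control.

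Genes of stress fibres and focal adhesions fell with the smooth muscle genes, by smaller amounts. Of 38 tested, 31 fell and 2 rose, with a median of -0.46. VCL, which encodes vinculin and links actin to focal adhesions, had 859.9, 817 and 853 CPM in dSAP, 1728, 1668 and 1612 CPM in WT and 368, 375 and 364 CPM in control. No libraries overlapped, and the change was -0.98 ± 0.04. CSRP1, a LIM protein of actin bundles, changed by -0.93 ± 0.05, PDLIM5, a scaffold of stress fibres, by -0.81 ± 0.05 and tropomyosin TPM4 by -0.76 ± 0.03. The summed level of the list was 48880 to 50610 CPM in dSAP, against 70200 to 72660 CPM in WT and 20580 to 21620 CPM in control, and 33 members had dSAP libraries that all lay below the WT libraries (21.4% of all genes did). On the TPM scale 24 members fell, and with all 24 libraries 23 did. Among 20 genes of the Arp2/3 complex and of actin nucleation, 10 fell and 3 rose, where 14.6% of all genes fell and 13.4% rose. ARPC5, an Arp2/3 subunit, fell by 0.53 and the formin gene DIAPH3 by 0.76, while FMNL2, another formin, rose (0.47 ± 0.03). The call of DIAPH3 was lost with all 24 libraries.

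Genes that wild-type MRTF-A raised or lowered in plates were then read on matrigel. They were chosen by a contrast of 2D libraries, in the fit whose filter and spread estimate the matrigel libraries share. In plates, 810 genes were called higher by at least 2-fold in 2D WT against 2D control (5.48% of genes tested). On matrigel 370 of them were lower in dSAP than in WT (45.7%, against 14.6% of all genes), 49 were higher, and their median change was -0.39. Against 3D control, the median of these genes was 1.11 in dSAP and 1.48 in WT, 2 values that share the control libraries. Of the 494 genes called lower by at least 2-fold in 2D WT (3.34%), 133 were higher in 3D dSAP than in 3D WT (26.9%, against 13.4% of all genes) and 23 lower, with a median of 0.28. Their medians against 3D control were -0.63 in dSAP and -0.91 in WT. The genes that WT induced in plates were split by whether they were also called higher in 2D dSRF than in 2D control, as 37.6% of all genes were. The name dSRF is used in the field for a form that does not bind SRF, and the labels do not spell it out. Of the 515 also higher in dSRF, 234 were lower in 3D dSAP (median -0.38), and of the other 295, 136 were (median -0.44).

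**Figure D2:**
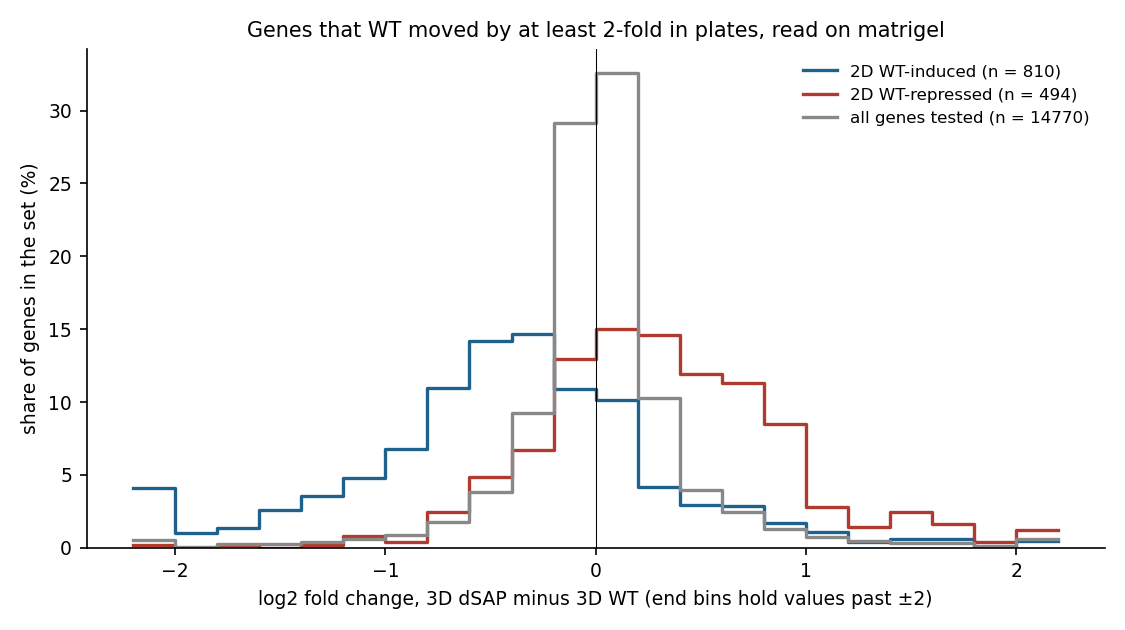
Share of genes, in percent, by log2 fold change of 3D dSAP minus 3D WT, for 810 genes that WT raised in plates, 494 genes that WT lowered in plates and all 14770 genes tested. The raised genes lie mostly left of 0 and the lowered genes mostly right of it.

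The genes named for the largest falls also held a keratin, IRAG1 and several genes of low level. KRT17, a keratin of basal and stressed epithelium with near-identical pseudogene copies, had 11.1, 10.0 and 9.33 CPM in dSAP, 95.3, 94.8 and 95.6 CPM in WT and 0.230, 0.0581 and 0.0499 CPM in control. The groups did not overlap and the change was -3.22 ± 0.08, the smallest adjusted p of all genes (8.96e-20, edgeR). IRAG1, a substrate of cGMP-dependent kinase in smooth muscle, had 0.438, 0.650 and 0.611 CPM in dSAP, 11.98, 12.6 and 11.99 CPM in WT and 0.346, 0.581 and 0.449 CPM in control, so dSAP lay close to control. C12orf54 had 2 counts over the dSAP libraries and 110 over the WT libraries, a ratio of 53.4 (WT over dSAP, 95% counting interval 14.4 to 447). GCNT4, a glycosyltransferase, changed by -2.40 ± 0.18, KANK1, which regulates actin and focal adhesions, by -2.33 ± 0.21, CMKLR1, the chemerin receptor, by -2.32 ± 0.33 and GIPC3, a PDZ-domain protein, by -2.31 ± 0.48. TRAC, the constant region of the T cell receptor alpha chain, had 14 counts in dSAP, 128 in WT and 0 in control. KANK1 had 0.951 ± 0.103 CPM in dSAP, 4.83 ± 0.521 CPM in WT and 1.39 ± 0.0959 CPM in control. Its lower level in dSAP than in control was not called (-0.54 ± 0.23, edgeR adjusted p = 0.067). RNF39 lies in the MHC region and is uncertain; it had 3.06, 3.5999 and 0 CPM in dSAP and 20.4, 20.5 and 17.8 CPM in WT, 1 dSAP library was at 0, and its call was lost without that library, with DESeq2 and on log2(TPM + 0.1). The call of CMKLR1 was lost on both TPM scales.

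The largest rise among the genes named was that of ALX1 (ENSG00000180318, chromosome 12, 85280107 to 85301784, GRCh38), a homeobox transcription factor of craniofacial development. It had 6.47, 6.25 and 7.72 CPM in dSAP, 0, 0 and 0.0472 CPM in WT and 0 counts in control. Among these matrigel groups only the dSAP libraries held the transcript beyond single counts. They had 397 counts against 1 in WT, a ratio of 409 with an exact 95% counting interval of 72.9 to 16190. In plates ALX1 had 7.85 ± 0.941 CPM in 2D dSAP and 0 CPM in 2D WT. It was not particular to dSAP there, as 2D dSRF was also called higher than 2D control (6.10 ± 0.79). VAV1 (ENSG00000141968, chromosome 19, 6772714 to 6857366, GRCh38), a guanine nucleotide exchange factor best known in blood cells, had 13.03, 10.2 and 13.9 CPM in dSAP, 0.371, 0.512 and 0.472 CPM in WT and 2.42, 2.73 and 2.49 CPM in control. The control libraries lay between the dSAP and WT libraries, and the difference of dSAP minus WT was 4.76 ± 0.19. GRAMD1B, which moves cholesterol between the plasma membrane and the endoplasmic reticulum, had 11.33, 10.4 and 10.5 CPM in dSAP, 0.743, 0.626 and 0.661 CPM in WT and 4.44, 4.76 and 3.69 CPM in control. Here too control lay between the overexpressing lines, with a difference of 3.97 ± 0.17.

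The other large rises were of genes near 1 to 3 CPM in dSAP. SYTL5, a synaptotagmin-like protein of vesicle transport, rose by 2.89, TAGLN3, a neuronal relative of TAGLN, by 2.17, NXF3, of the RNA export factor family, by 2.39 and SERPINB2, a plasminogen activator inhibitor, by 2.42. All 4 stood lowest in control: SERPINB2 had 92 counts in dSAP, 17 in WT and 0 in control. PTGFRN, a tetraspanin partner, had 1.43 ± 0.297 CPM in dSAP, 0.204 ± 0.0982 CPM in WT and 0.903 ± 0.279 CPM in control. VSTM4, an immunoglobulin-domain membrane protein, and SLC43A2, an amino acid transporter, likewise had WT as the lowest group, with 1.77 ± 0.783 CPM in dSAP, 0.190 ± 0.328 CPM in WT and 3.23 ± 0.196 CPM in control for SLC43A2. PSG3 and CGB5, placental genes, belong to families of near-identical copies and are uncertain, with changes of 3.14 ± 0.31 and 2.205 ± 0.69. The calls of SLC43A2 and CGB5 were lost with all 24 libraries (adjusted p = 0.0719 and 0.0638), SLC43A2 also with the 6 libraries alone and without either of 2 dSAP or 2 WT libraries, CGB5 without 1 dSAP or either of 2 WT libraries and on log2(TPM + 0.1), and VSTM4 without 1 WT library and on both TPM scales.

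**Figure D3:**
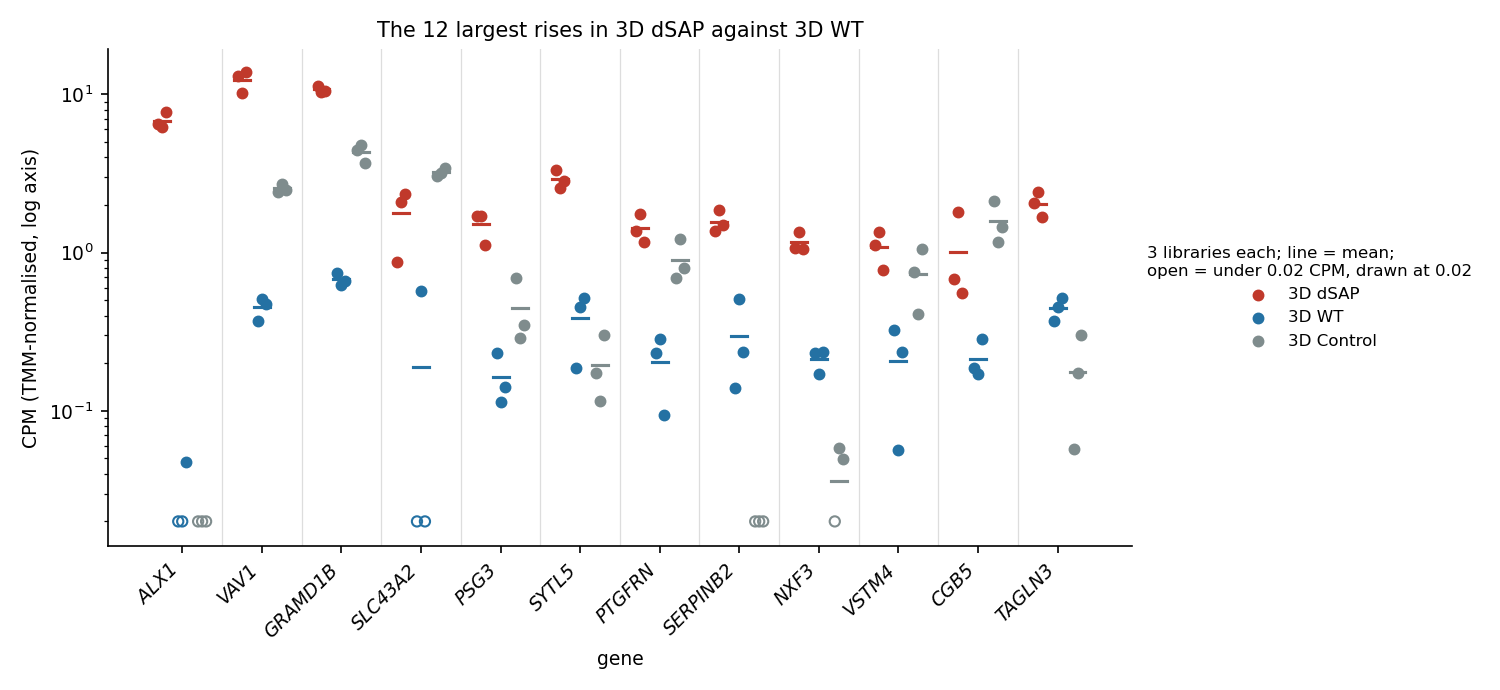
Levels in CPM on a log axis for the 12 genes with the largest rises, with 1 point per library for 3D dSAP, 3D WT and 3D control. ALX1 is at or near 0 outside dSAP, and for VAV1, GRAMD1B, SLC43A2, PSG3, PTGFRN, VSTM4 and CGB5 the WT libraries lie below the control libraries.

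Genes of the extracellular matrix, of its receptors and of YAP/TEAD signalling were lower in dSAP. Of 26 structural matrix genes, 14 fell and 4 rose (median -0.38). Over all genes 14.6% fell and 13.4% rose, with a median of 0.02. FN1, which encodes fibronectin, had 1281, 1282 and 1289 CPM in dSAP, 2913, 2849.9 and 3055 CPM in WT and 599, 649.8 and 605 CPM in control. The 3 groups were separate and the change was -1.19 ± 0.09. COL1A2, a fibrillar collagen chain, changed by -1.40 ± 0.11, TNC, the matrix glycoprotein tenascin, by -1.05 ± 0.15, THBS1, thrombospondin, by -1.01 ± 0.06 and COL5A1 by -0.53 ± 0.05. Of 17 basement membrane genes, 9 fell and 2 rose, among them the collagen IV chains COL4A1 (-0.52 ± 0.04) and COL4A2 (-0.52 ± 0.04) and the laminin chains LAMB1 (-0.54 ± 0.04) and LAMC1 (-0.40 ± 0.04), all of which fell. The 2 rises were 0 without 3D dSAP 1 and without 3D WT 3. Of 15 integrin subunits, 8 fell and none rose by edgeR, while 1 was higher at an unadjusted p under 0.05, none by DESeq2 and 2 on log2(TPM + 1). ITGA1, a collagen receptor subunit, had 87.0, 80.5 and 92.5 CPM in dSAP, 239.8, 245 and 235 CPM in WT and 55.3, 51.4 and 49.6 CPM in control. ITGA5, the fibronectin receptor subunit, changed by -1.24 ± 0.08 and ITGAV by -0.49 ± 0.04, each without overlap. In the fit of all 24 libraries 7 structural matrix genes fell and 2 rose, 6 basement membrane genes fell and 0 rose, and 6 integrin subunits fell.

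Of 22 YAP/TEAD target genes, 14 fell and 1 rose, with a median of -0.21. For this and the next lists, 14.6% of all genes fell and 13.4% rose. CCN2, a matricellular protein, stood at 52.9, 50.2 and 47.2 CPM in dSAP, 132, 130.1 and 127 CPM in WT and 9.56, 10.6 and 11.32 CPM in control and fell by 1.37. CCN1 fell by 0.39, ANKRD1, a muscle ankyrin repeat protein, by 0.82, the growth factor TGFB2 by 1.08 and NT5E, the ectonucleotidase CD73, by 0.45. This list was sensitive to the fit: 8 fell on either TPM scale and 4 with all 24 libraries, where CCN1, TGFB2 and, of the matrix list, THBS1 lost their calls (adjusted p = 0.30, 0.162 and 0.177). Among 20 matrix proteases and inhibitors, 7 fell and 3 rose. TIMP3, a metalloprotease inhibitor, fell by 1.34 and ADAMTS1 by 1.13, the ADAMTS1 call being lost with all 24 libraries, while SERPINE2, an inhibitor of serine proteases, was low and rose, with 7.07 ± 1.16 CPM in dSAP and 2.41 ± 0.348 CPM in WT. Of 11 keratins, 6 fell and none rose (none higher at an unadjusted p under 0.05 or by DESeq2), KRT8 by 0.55, KRT7 by 0.33 and KRT80 by 0.36 beside KRT17. Of 14 mesenchymal genes and regulators, 8 fell and 1 rose: MCAM, a cell adhesion molecule, fell by 0.62, and VIM by 0.49. CDH2, which encodes N-cadherin, changed by -1.598 ± 0.20 at under 3 CPM, and its call was lost with all 24 libraries. Of 17 epithelial junction genes, 4 fell and 4 rose, and TJP3, a tight junction scaffold, rose by 1.92. CAV1, the caveolar coat protein and a marker of this cell line, stood at 561 ± 21.1 CPM in dSAP, 1131 ± 26.3 CPM in WT and 516 ± 28.3 CPM in control. The fit of all 24 libraries called fewer. Among matrix protease genes 2 fell and 2 rose, 4 keratins fell, 5 mesenchymal genes fell and 0 rose, and 2 epithelial junction genes fell and 2 rose.

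Most genes that respond to BMP and TGF-beta were higher in dSAP. Of 16 tested, 11 rose and none fell by edgeR (median 0.46), where 13.4% of all genes rose and 14.6% fell. By unadjusted p under 0.05 1 was lower, and by DESeq2 10 rose and none fell. In other edgeR settings 2 fell without 3D dSAP 2. With the replicate block, with no filter and with the 6 libraries alone, 1 fell. ID1, an inhibitor of basic helix-loop-helix factors that BMP signalling induces, had 151, 168 and 156 CPM in dSAP, 94.4, 109 and 96.0 CPM in WT and 218, 198 and 199 CPM in control. The dSAP libraries lay above WT and below control. ID3 showed the same order, with 103, 111 and 107 CPM in dSAP, 74.8, 71.5 and 76.3 CPM in WT and 138, 144 and 142 CPM in control, as did ATOH8, a helix-loop-helix factor, with 20.7 ± 2.05, 10.8 ± 0.809 and 34.7 ± 4.80 CPM in the same groups. SMAD9, a receptor-activated SMAD of the BMP pathway, rose by 0.64. With all 24 libraries only 1 of the 16 was called, and ID1, ID3, ATOH8 and SMAD9 were not (adjusted p between 0.181 and 0.551). On the TPM scale 9 rose. In plates 4 of the 16 rose and 1 fell, with a median of 0.05.

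**Figure D4:**
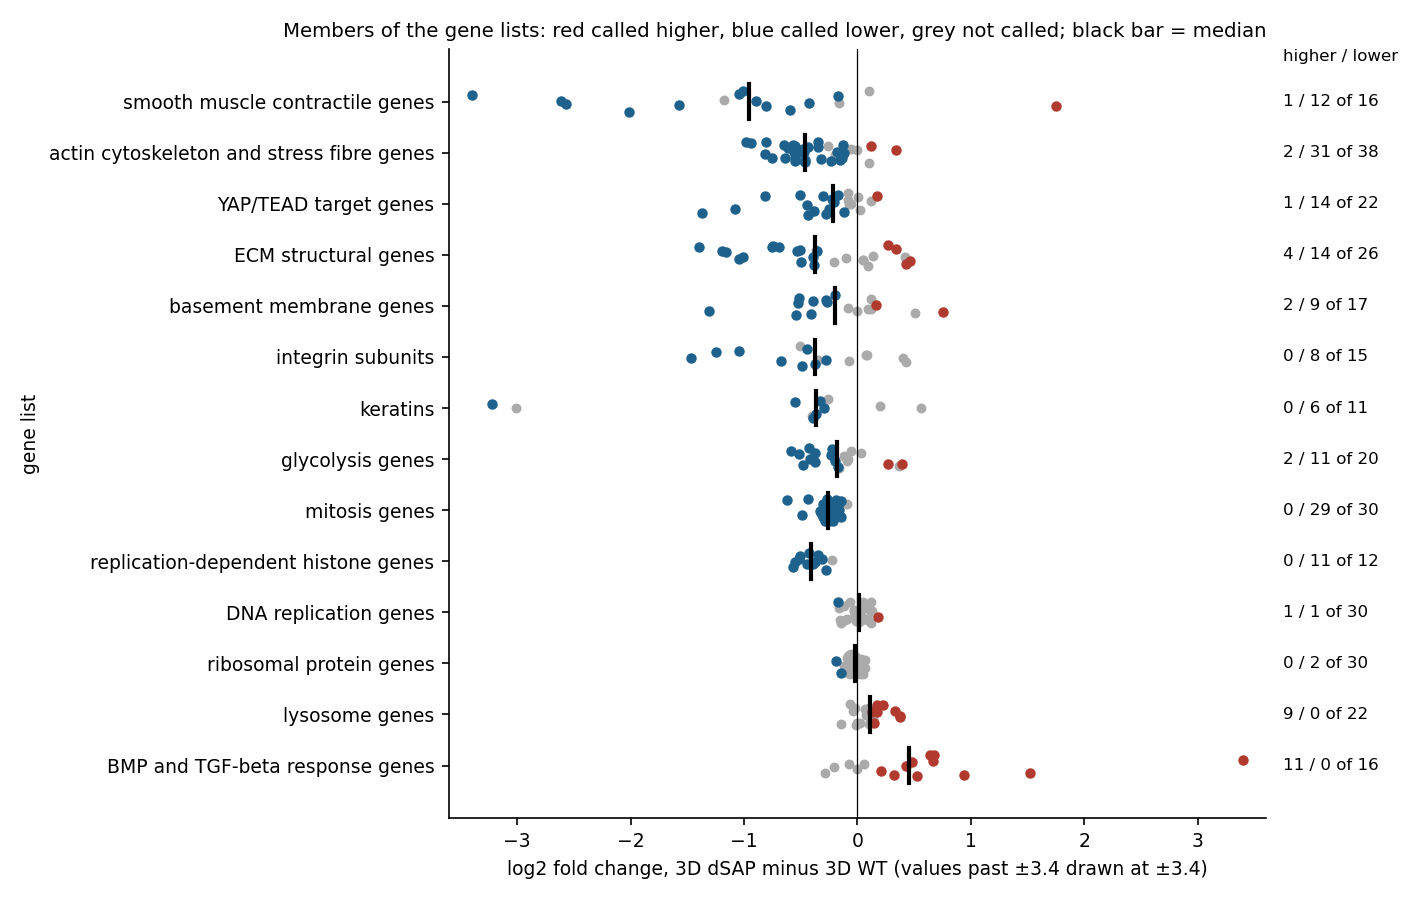
Log2 fold change of 3D dSAP minus 3D WT for each tested member of 14 gene lists, values past the axis limits drawn at its ends, with the median as a black bar and the counts called higher and lower at the right. Contractile, cytoskeletal, matrix and mitosis lists lie left of 0, DNA replication and ribosomal protein genes lie around it, and lysosome and BMP response genes lie to the right.

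Mitosis genes were lower in dSAP by a small amount. Of 30 tested, 29 fell and none rose (none higher at an unadjusted p under 0.05 or by DESeq2), with a median of -0.26, and in all 30 the dSAP libraries lay below the WT libraries (21.4% of all genes did). KIF20A, a kinesin of cytokinesis, had 72.4, 73.7 and 68.9 CPM in dSAP, 113, 114 and 104 CPM in WT and 91.4, 88.6 and 87.7 CPM in control. Control lay between the overexpressing lines, and the change was -0.62 ± 0.06. KIF23, another kinesin of the midbody, changed by -0.49 ± 0.05, ANLN, the contractile ring protein anillin, by -0.44 ± 0.04 and KIF4A, a chromosome-bound kinesin, by -0.33 ± 0.04. Against 3D control the median of the list was -0.23 in dSAP and -0.02 in WT, 2 values that share the control libraries. Replication-dependent histone genes were lower too, 11 of 12 with a median of -0.41, among them H1-2 (-0.37 ± 0.05), H1-4 (-0.44 ± 0.04) and H4C8 (-0.31 ± 0.05). These are multigene families with similar copies, whose transcripts lack poly(A) tails, and the library protocol and the molecule field of the labels disagree on polyA selection. Of 16 cyclins, kinases and inhibitors, 8 fell and 1 rose, where 14.6% of all genes fell and 13.4% rose. Cyclin D1 (CCND1) fell by 0.62 and its partner kinase CDK6 by 0.32. On TPM 3 of these genes fell, and with all 24 libraries 2 did.

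DNA replication genes did not share this change. Of 30 tested, 1 rose, MCM2, a subunit of the replicative helicase (0.18 ± 0.05), and 1 fell, RRM2, a subunit of ribonucleotide reductase (-0.17 ± 0.04), and the median was 0.02. The mitosis result depended on scale and spread: 11 of 30 fell on either TPM scale, where the median was -0.17, and 4 fell with all 24 libraries. For histones the counts were 11 on TPM and 0 with all 24 libraries, where H1-2, H1-4, H4C8, ANLN, KIF4A, CDK6, MCM2 and RRM2 lost their calls. KIF4A, MCM2 and RRM2 were not called on TPM either, and MCM2 was not called without 1 dSAP library (adjusted p = 0.0563).

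The lists of metabolic and stress genes were read against the 13.4% of all genes called higher and the 14.6% called lower. Of 20 glycolysis genes, 11 fell and 2 rose (median -0.18). GAPDH stood at 1461 ± 38.8 CPM in dSAP and 2037 ± 17.7 CPM in WT, and the enzymes ALDOA and PGK1 fell by 0.52 and 0.58. Of 21 hypoxia response genes, 11 fell and 2 rose. ADM, the vasoactive peptide adrenomedullin, was among those that fell (-0.70 ± 0.05). Of 22 lysosome genes, 9 rose and none fell by edgeR (median 0.11, against 0.02 over all genes), while 1 was lower at an unadjusted p under 0.05 and none by DESeq2. In other settings 14 rose on TPM, 4 with all 24 libraries and 5 without 3D dSAP 1, where 1 fell. The protease gene CTSD had 977, 987 and 971 CPM in dSAP, 777, 749 and 732 CPM in WT and 2576, 2411 and 2149.7 CPM in control, so dSAP lay between WT and control. Of 17 NRF2 and ferritin genes, 6 rose and 4 fell. The ferritin light chain FTL stood at 2125 ± 96.5 CPM in dSAP, 1659 ± 15.4 CPM in WT and 3871 ± 276 CPM in control. Of 28 genes of cholesterol and fatty acid synthesis, 8 fell and 2 rose, counts of 1 and 2 on TPM, and 3 fell without 3D WT 1. Of 21 ATF4 targets, 5 fell and 3 rose, and PSAT1, of serine synthesis, fell (-0.65 ± 0.06). Of 20 endoplasmic reticulum chaperones, 5 fell and 1 rose, and HSP90B1 fell by 0.61. Of 30 ribosomal protein genes, 2 fell, and of 13 mitochondrially encoded genes 0 were called by edgeR, 0 by DESeq2 and 0 at an unadjusted p under 0.05. Fitted with all 24 libraries, 7 glycolysis and 5 hypoxia genes fell, 0 ATF4 targets rose and 3 fell, and 4 NRF2 and ferritin genes rose and 1 fell. On TPM 4 chaperones rose and 2 fell, and 4 ATF4 targets rose and 3 fell.

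Inflammatory and interferon genes gave mixed counts, to be read beside the 13.4% of all genes called higher and the 14.6% called lower. Of 35 interferon response genes, 11 fell and 4 rose. RIGI, a sensor of viral RNA, had 160.5, 162 and 164 CPM in dSAP, 245, 250.04 and 242 CPM in WT and 32.4, 31.8 and 29.8 CPM in control. The groups were separate, with both overexpressing lines above control. IFIT3 fell by 0.52 and ISG15 by 0.51, both interferon-induced antiviral genes. Of 15 chemokines, interleukins and growth factors, 6 fell and 1 rose. CSF2, a myeloid growth factor, fell by 0.72, the cytokine LIF by 0.49, and the neutrophil chemokines CXCL1 by 0.48 and CXCL8 by 0.41. CXCL1 stood at 18.0 ± 4.26 CPM in dSAP, 25.05 ± 1.84 CPM in WT and 81.0 ± 7.57 CPM in control, so both forms lay under control. Of 14 NF-kB subunits and feedback genes, 5 fell, ICAM1, an adhesion receptor for leukocytes, by 0.65 and TNFAIP3, a feedback inhibitor, by 0.74. With all 24 libraries CSF2, CXCL1, CXCL8 and TNFAIP3 lost their calls, and with the 6 libraries alone CXCL1 and CXCL8 did. Fewer members were called in the remaining lists: 6 of 21 immediate early genes fell and 3 rose, 4 of 13 EGF family genes fell and 1 rose, and 5 of 16 p53 targets rose and 1 fell. These rises changed when a library was left out. Leaving out 1 library gave 1 to 4 p53 targets higher (1 without 3D dSAP 3) and 0 to 3 immediate early genes higher (0 without 3D WT 2), and DESeq2 gave 2 and 1. By the fit of all 24 libraries 0 p53 targets were called, 0 immediate early genes rose and 1 fell, 1 EGF family gene fell, 1 gene of the chemokine list fell, 2 of the NF-kB list fell, and 4 interferon genes fell and 4 rose. On log2(TPM + 1) 5 immediate early genes rose and 3 fell, and 4 chemokine list genes rose and 5 fell.

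The same lines in plates, which share no library with the matrigel comparison, were set beside it. In plates 4243 genes were called (28.7%), 1958 higher (13.3%) and 2285 lower (15.5%). Of the genes called on matrigel, 2063 were also called in plates, 1868 of them in the same direction (45.2% of the matrigel calls and 44.0% of the plate calls) and 195 in the opposite one. Of the 327 called on matrigel with at least 2-fold change, 289 had the same sign in plates and 169 were called the same way. Across 14770 genes, which are not independent, the fold changes of the cultures had a Pearson r of 0.215 and a Spearman rho of 0.361.

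The contractile difference was present in both cultures. In plates 11 of the 16 smooth muscle genes fell and 1 rose (median -0.46), and 28 of the 38 stress fibre genes fell and 2 rose. ACTA2 changed by -2.54 ± 0.12 in plates and -2.61 ± 0.12 on matrigel, and ACTG2 by -0.99 ± 0.16 and -1.01 ± 0.16, with no called difference between cultures for either. MYL7 rose in both, by 1.37 ± 0.18 in plates. The test of the difference itself, the matrigel change minus the plate change, called 1806 genes (12.2%), 862 with a positive value (5.84%) and 944 with a negative one (6.39%). Among the contractile genes it called 5, all negative (SMTN and 4 others): KCNMB1, MYLK, CALD1 and TPM1 had values of -1.97, -0.82, -0.23 and -0.36. The construct itself differed more on matrigel than in plates (0.27), and its part in these values was not tested.

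Mitosis genes differed between cultures as a list. In plates 17 of 30 rose in dSAP and none fell (median 0.14), against 29 falls on matrigel, and the difference was called in 27, all negative. DNA replication genes, flat on matrigel, rose in plates in 18 of 30 and fell in 2. Histone genes had 11 of 12 called differences, all negative. Lysosome genes had 11 of 22 called differences, all positive, with 1 higher and 7 lower in plates. ATF4 targets had 15 of 21 lower in plates, against 5 on matrigel, and 13 called positive differences against 1 negative. Endoplasmic reticulum chaperones had 16 of 20 lower in plates and 9 called positive differences. With all 24 libraries the difference between cultures was called for 207 genes, and on TPM for 760 and 733.

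**Figure D5:**
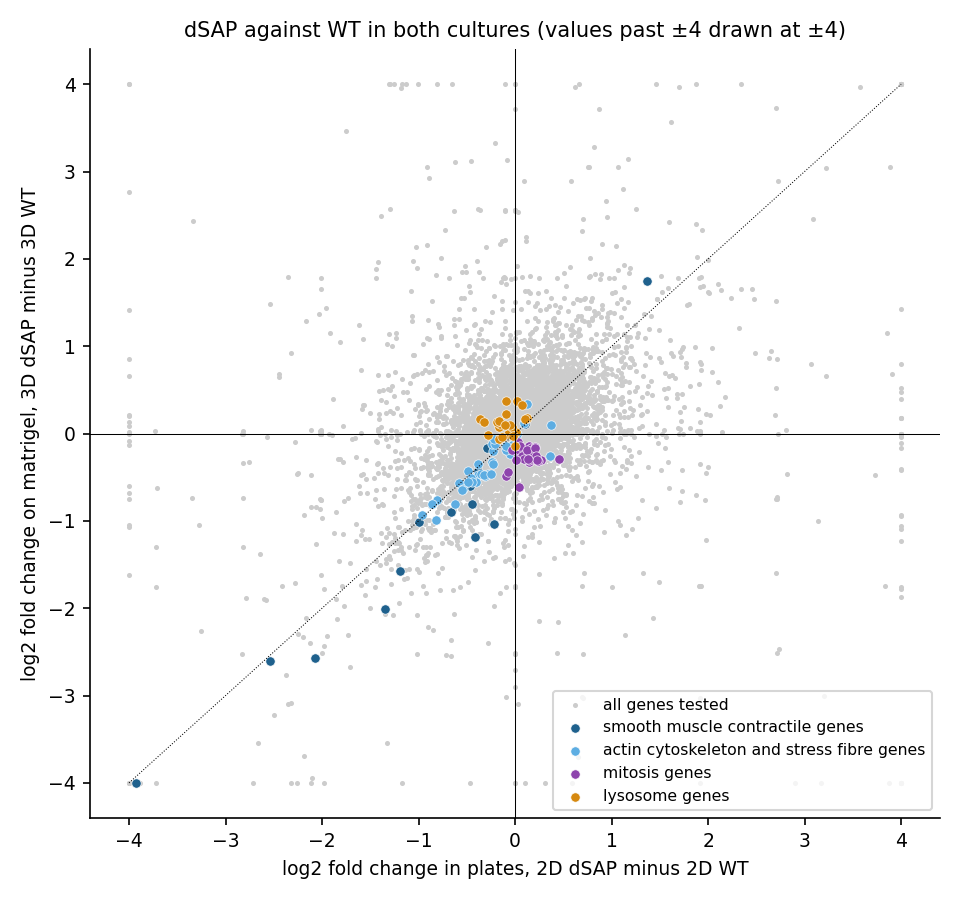
Log2 fold change of dSAP minus WT on matrigel (vertical) against the same in plates (horizontal) for 14770 genes, with 4 gene lists in colour, values past the axis limits drawn at them and equality as a dotted line. Most contractile and cytoskeletal genes lie in the lower left, some contractile genes below the line, and MYL7 lies in the upper right. Mitosis genes lie below 0 on matrigel and mostly above 0 in plates.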

How the data were processed

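RNA libraries of MDA-MB-231 lines were read as gene tables. The labels disagree on whether these held total RNA or polyA RNA. The deposited estimated counts per gene and TPM per gene were made with FastQC and Salmon 11.3 on hg38, per the submitters' processing notes. The annotation and strand setting are not given in the sources used here. Estimated counts deposited by the authors were rounded and tested with edgeR 4.0.16 in R 4.3.3 (filterByExpr, TMM, robust quasi-likelihood test, Benjamini-Hochberg adjustment over 14770 genes, 970 of them without a symbol). The fit held 21 libraries in 7 groups with 14 residual degrees of freedom and left out the 3D dSRF group, in which 1 library stands apart. The deposited TPM were tested with limma 3.58.1 on log2(TPM + 1) and log2(TPM + 0.1), and DESeq2 1.42.0, RLE factors, no filter, other library sets, a replicate block and leaving out each library were alternatives. Exact 95% intervals of count ratios cover counting error only. Bounds against 0 use 3 counts over the group.

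Named genes were the 12 largest and 12 most negative changes among called genes with a symbol, at least 1 CPM in dSAP or WT and libraries that did not overlap, a fixed set of MRTF and contractile genes, and, from each list, the members with the smallest p (4 at most). The members and lists were chosen with earlier results of these data known. Not every gene the rule picks is printed.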

Additional observations from a re-analysis of the deposited data

Results flagged for a closer look

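For 42 of the 119 named genes the change of dSAP against WT differed between matrigel and plates. This is by the test of the difference itself (edgeR, adjusted p under 0.05). Over all 14770 genes that test called 1806 (12.2%), and 207 with all 24 libraries. Many of the named genes were chosen by their change or p on matrigel, a choice that favours a raised share. The values here are log2, the matrigel change minus the plate change. A negative value means that dSAP stood lower against WT on matrigel than in plates.

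Among contractile, cytoskeletal and CArG-bearing genes the negative differences were those of KCNMB1 (-1.97), MYLK (-0.82), CD34 (-0.77), GARIN1B (-0.68), DIAPH3 (-0.57), TPM1 (-0.36), CALD1 (-0.23) and VCL (-0.16), while the formin gene FMNL2 (0.15) had a positive one. Among genes of the matrix, its receptors, YAP/TEAD targets and epithelial or mesenchymal state, negative differences were found for CDH2 (-0.80), KRT17 (-0.73), TGFB2 (-0.61), CAV1 (-0.60), THBS1 (-0.60), ITGA1 (-0.53), KRT80 (-0.31) and LAMB1 (-0.20), and positive ones for ITGAV (0.19) and TJP3 (1.90).

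Mitosis, cell cycle and histone genes all had negative differences among those named, with KIF20A (-0.66), KIF4A (-0.48), KIF23 (-0.39), ANLN (-0.37), CCND1 (-0.41), H4C8 (-0.56), H1-4 (-0.46) and H1-2 (-0.42). In plates KIF20A changed by 0.04 and KIF4A by 0.15, against -0.62 and -0.33 on matrigel.

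The BMP response genes were divided, with ATOH8 (-1.71) and ID1 (-0.95) negative and SMAD9 (0.75) positive. ID1 rose in both cultures, by 0.67 on matrigel and by 1.62 in plates. The ferritin gene FTL (0.71) and the lysosomal protease gene CTSD (0.47) had positive differences, and so did the macrophage marker CD68 (0.59) and the cytokine CSF2 (0.54). The interferon-induced gene IFIT3 (-0.59) had a negative one.

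Of the genes with large changes, VAV1 (2.43), TAGLN3 (2.32), PSG3 (1.97) and PTGFRN (1.68) rose more on matrigel, and C12orf54 (-3.19) fell more. They were named for their large matrigel change, and that choice favours a larger change on matrigel than in plates. VAV1 changed by 4.76 on matrigel and by 2.34 in plates. The construct gene MRTFA (0.27) and its relative MRTFB (-0.24) also differed. MRTFB was not called on matrigel.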

How the results depend on the processing

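The number of genes called on matrigel (4134) was within 1.5 times under RLE size factors (4145), no low-count filter (3703), the 6 libraries alone (4607), DESeq2 (3758), 23 libraries (4149) and both TPM scales, and all calls shared with these settings had the same direction. The called genes themselves overlapped less on TPM. Of 3384 genes called on log2(TPM + 1), 2420 were among the 4134, and of 3249 on log2(TPM + 0.1), 2362 were. With all 24 libraries it was 1810, the plate count 1919, the difference between cultures 207 and the plate-lowered genes that were higher in dSAP 68, and without the library labelled 3D dSRF 1 these were 4149, 4220, 1791 and 132. On log2(TPM + 1) the difference between cultures was 760 and the plate-raised genes that were lower in dSAP 226, and on log2(TPM + 0.1) these were 733 and 240. Leaving out each library in turn gave 3346 to 3536 genes on matrigel, 3273 to 3956 in plates, 1307 to 1970 for the difference, 333 to 359 plate-raised and 107 to 116 plate-lowered genes. The cause of the shifts on TPM was not tested. Of 119 named genes, 27 lost their call with all 24 libraries, 8 and 10 on the TPM scales and 1 to 4 without a single 3D library. CNN1, not called, turned to 0.13 on log2(TPM + 1) and 0.17 on log2(TPM + 0.1), and MGAM, not called, to 0.0004 on log2(TPM + 0.1). Low counts limit KCNMB1, C12orf54, TRAC and ALX1.

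The deviations of same-numbered dSAP and WT libraries from their group means had little correlation (r = 0.11, -0.07 and 0.07). The labels do not say whether equal numbers mark libraries handled together, and this check cannot settle it. No pairing was used in the main fit. With the replicate number as a block, 4180 genes were called on matrigel, 4277 in plates and 1871 for the difference, with 357 plate-raised and 137 plate-lowered genes.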
